A study of Xenopus tropicalis with 6 samples.

Results

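The genes described here are a group of 8 innate immune genes of *Xenopus tropicalis*, out of 23634 genes in the table, read in whole neurula embryos with and without knockdown of the neuronal tyrosine kinase isoform N1-SRC. The group was given as 9 exact gene symbols: *acod1*, *irg1*, *irf1*, *irf3*, *irf8*, *stat3*, *socs3*, *nfkbia* and *nfkb1*. A row was found for 8 of them, and the exact symbol *stat3* has no row. Of the 8 genes, 5 reached a mean of 1 TPM (transcripts on a fixed scale, explained below) in at least 1 group and entered the test, and the 3 others, *irf3*, *irf8* and *nfkb1*, stayed below that level. *acod1* was chosen by its measured values, a level that differed widely between samples of the same group, and *irg1*, which tracks it, carries an older symbol for the same enzyme. The values of both are therefore given as a description with no test.

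As background, ACOD1, formerly IRG1, is a mitochondrial enzyme that makes itaconate from the citrate cycle intermediate cis-aconitate and is known in mammals as a product of activated macrophages. Signals from pattern recognition receptors reach the nucleus through NF-κB dimers, which the inhibitor IκBα (*nfkbia*) holds in the cytoplasm, and through the interferon regulatory factors (IRFs), which switch on interferon genes and their targets. Cytokine receptors signal through JAK kinases and STAT transcription factors such as STAT3, and SOCS3 is a feedback inhibitor of that route. In a neurula the circulating immune system has not formed, and the earliest innate immune cells of the frog are the primitive myeloid cells of the anterior ventral mesoderm.

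Polyadenylated RNA from whole embryos of the Nigerian genotype was sequenced at Stage 16, in 3 samples from embryos injected with 10 ng of control morpholino and 3 samples from siblings injected with 10 ng of the antisense morpholinos that block splicing of the *n1-src* microexon (morphants). No uninjected sample was used here, so every sample carries a morpholino injection. Samples are numbered 1 to 3 in both groups, and a control and a morphant of the same number are called a replicate set. Sets of sibling embryos are what the study describes, and the labels do not say whether the sets came from different parents, so the spread between samples may include technical spread. TPM is a share of all transcripts scaled to a fixed total, and it keeps no read depth, so no counting error can be attached to a value. Each control sample had 12962 to 13126 genes at 1 TPM or more, and each morphant had 12710 to 12938. LOC108645507 and LOC100335111 together took 4.89% of all TPM of morphant 1, compared with 0.193 to 0.525% in every other library. The summed level of *src* was 18.7, 25.8 and 49.2 TPM in controls and 15.6, 17.3 and 34.6 TPM in morphants. It was lower in 3 of 3 sets with overlapping groups (log2 fold change −0.44, SE 0.084, limma adjusted p = 0.0398). The adjusted p was 0.822 without the replicate block and 0.0642 with median scaling (limma). The level of *src* does not check the knockdown, since the microexon is not read separately at gene level. The study checked *n1-src* by RT-PCR in the 3 sets it sequenced. In bulk samples, fewer cells of a type and less RNA per cell cannot be told apart.

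*acod1*, the gene for the itaconate-making enzyme, was 0.579, 96.9 and 36.1 TPM in control samples 1, 2 and 3. In morphant samples 1, 2 and 3 it was 26.2, 34.7 and 84.4 TPM. Control 1 was nearly without *acod1* transcripts while its sibling morphant was not, and the highest level of all was in control 2. The group means were 44.5 ± 48.7 TPM in controls and 48.4 ± 31.4 TPM in morphants (SD, n = 3). The groups overlapped, with all 3 morphants inside the range of the controls. As a plain ratio of TPM, the highest control exceeded the lowest by 167-fold, and the highest morphant exceeded the lowest by 3.23-fold.

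The row *irg1* showed the same order of samples within each group at a higher level. It was 1.03, 183 and 60.5 TPM in the controls and 55.2, 78.4 and 139 TPM in the morphants, with group means of 81.4 ± 92.7 and 90.8 ± 43.2 TPM (SD, n = 3). The fold between its highest and lowest sample was 177 in controls and 2.52 in morphants. Again control 1 stood apart from the 5 others, and control 2 was the highest.

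Within replicate sets the morphant was above the control in sets 1 and 3 and below it in set 2, for both genes. On the log2(TPM + 0.5) scale, the morphant minus control difference of *acod1* was 4.63 in set 1, −1.47 in set 2 and 1.21 in set 3, a mean of 1.46 with an SD of 3.05. For *irg1* the differences were 5.18, −1.22 and 1.19, a mean of 1.72 with an SD of 3.23. Without set 1 the means were −0.13 for *acod1* and −0.012 for *irg1*, and without set 2 they were 2.92 and 3.19. The sign of either mean turned when set 1, with the low control 1, was left out, and each mean was smaller than its SD.

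**Figure D1:**
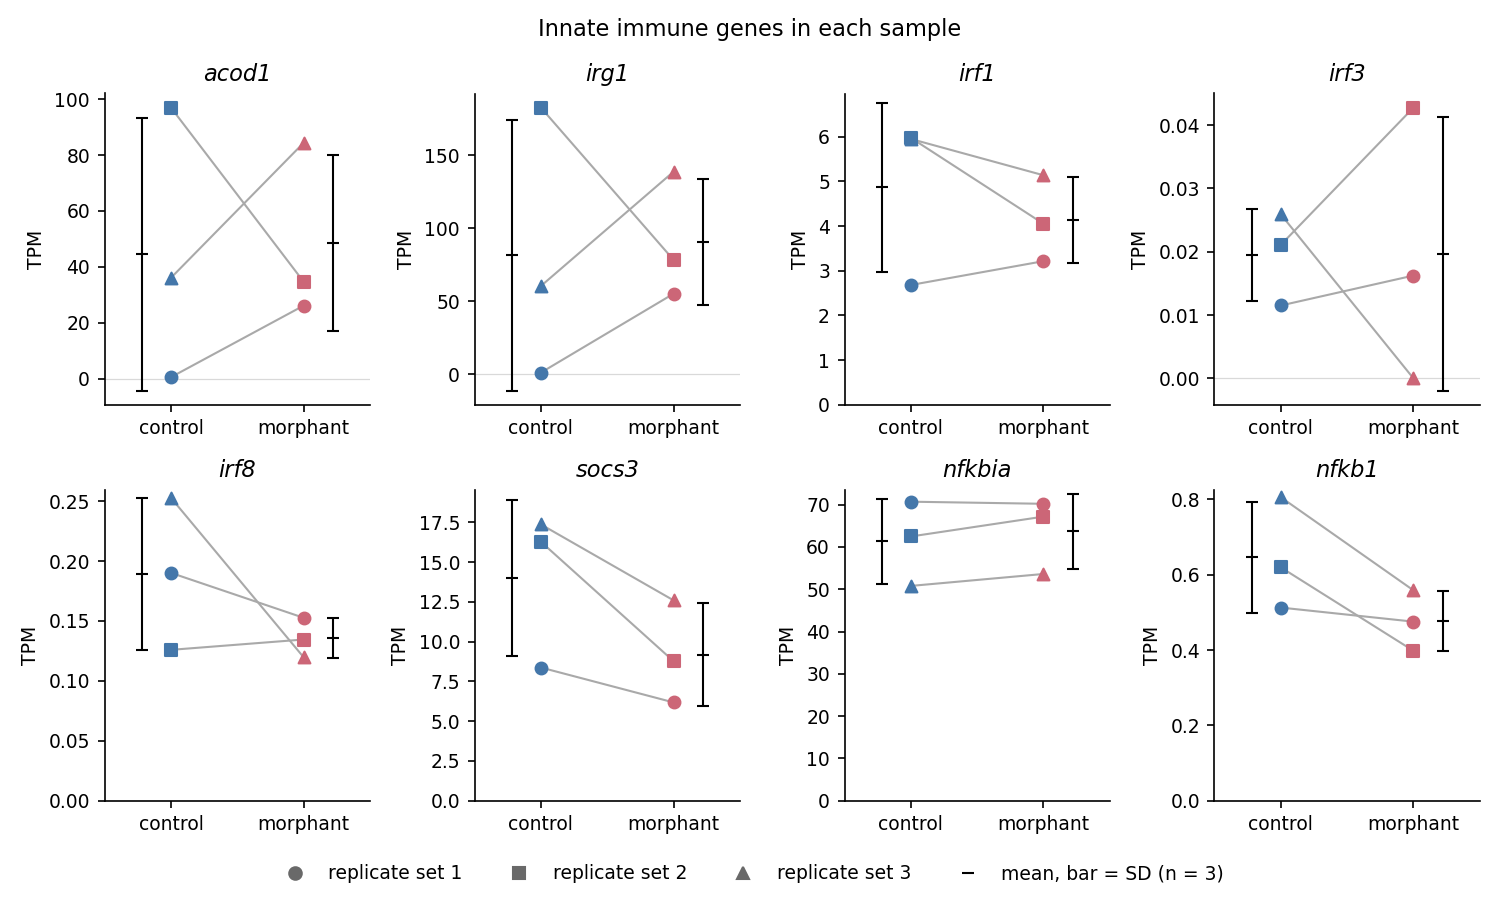
TPM of the 8 genes in each control and morphant sample (vertical axes in TPM, a different scale in each panel), with grey lines joining the samples of a replicate set and black bars giving mean and SD of 3 samples. Lines cross for *acod1* and *irg1*, where control 1 lies at 0.579 and 1.03 TPM, whereas all 3 lines fall for *socs3* and those of *nfkbia* stay nearly flat.

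The spread of *acod1* stood near the top of the transcriptome in the controls, and was less extreme but still well above the median gene in the morphants. Its SD over the 3 controls was 3.42 on the log2 scale, the 6th highest of 13382 genes tested, where the median gene had 0.24. Over the 3 morphants the SD was 0.87, the 386th highest, with a median gene at 0.21. *irg1* was 4th in the controls with an SD of 3.61 and 729th in the morphants with 0.67. These ranks describe the pattern for which *acod1* was chosen and are no test of it.

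The variation of *acod1* was shared only in part by samples of the same number, and whether the sets are separate clutches is not given in the labels. Controls ranked 1, 3, 2 from low to high, and morphants ranked 1, 2, 3. The SD of its 3 within-set differences, 3.05, was the 11th highest of all genes tested, against a median of 0.15. The set means of *acod1* on the log2 scale were 2.42, 5.87 and 5.80, with set 1 lowest in both groups, and those of *irg1* were 3.21, 6.91 and 6.53. By contrast *nfkbia* and *socs3* kept the same order of sets in both groups, and *irf1* had the order of *acod1*, with controls 2 and 3 nearly equal.

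The identity of the row *acod1* is uncertain. The table holds 3 rows of this gene type, *acod1*, *irg1* and LOC100490060, and the RefSeq genes of the assembly UCB_Xtro_10.0 also number 3, named *acod1*, *acod1la* and *acod1lb*. LOC100490060 is *acod1la* by its gene number. RefSeq lists both *acod1* and *irg1* as synonyms of *acod1lb*, so the row *acod1* could be either the RefSeq gene *acod1*, which lies outside the gene run described next, or a second record of *acod1lb*. Closely related copies can share reads, and *irg1* exceeded *acod1* by a narrow ratio of 1.65 to 2.26 in the 6 samples. LOC100490060 was 0.781, 113 and 72.9 TPM in controls and 24.3, 44.7 and 122 TPM in morphants. Summed over the 3 rows, the level was 2.39, 393 and 169 TPM in controls and 106, 158 and 345 TPM in morphants. Such a sum is free of how reads were split only if the copies are of like length, which was not checked. The low level of control 1 was therefore present in the sum as well.

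Few other genes had a profile like that of *acod1*, and those with a range of comparable size included a run of neighbouring genes. Over 9046 genes with a mean of at least 5 TPM, 16 had a Pearson r of at least 0.95 with *acod1* over the 6 samples on the log2 scale, and 13 of the 16 also had a log2 range of at least 3. Only 74 of the genes compared had such a range. All 13 were lowest in control 1. In the RefSeq gene order, 7 of the 13 belong to a run of 10 neighbouring protein-coding genes that begins with *acod1lb* and ends with *gatd3alb.1*. Points here share libraries and a single low sample, so r is a description only.

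The run holds 3 gene types by name: *acod1*-like, *phyhdl* and *gatd3al* genes, the last related to the glutamine amidotransferase-like gene *gatd3a*, together with *satpa* and LOC116406583, which has no row. The highest levels were those of *phyhdla.3* and *phyhdla.2*. LOC100490235 (*phyhdla.3*) was 13.8, 1023 and 277 TPM in controls and 159, 348 and 551 TPM in morphants. LOC100490748 (*phyhdla.2*) was 7.65, 713 and 257 TPM in controls and 86.3, 209 and 348 TPM in morphants. The *gatd3al* gene *gatd3a-like* was 1.83, 83.5 and 36.6 TPM in controls and 44.8, 47.1 and 100.3 TPM in morphants. In each of them control 1 was lowest, as for *acod1*.

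Each of the 9 genes of the run with a row, counting the row *irg1* as *acod1lb*, was lowest in control 1. The highest sample was control 2 for 6 genes, morphant 3 for 2 and control 3 for 1. As a plain ratio of TPM, control 2 exceeded control 1 by 18.2-fold to 586-fold, with a median of 89.6-fold. On the log2(TPM + 0.5) scale, which understates the change of low genes, the differences were 3.95 to 7.49 with a median of 6.16, and r with *acod1* ranged from 0.915 to 0.997. Their summed level was 31.7, 2458 and 948 TPM in controls and 448, 867 and 1493 TPM in morphants. The 14 RefSeq genes beside the run, 6 before and 8 after it, differed between the same pair of controls by −1.10 to 0.68 on that log2 scale, with a median of 0.041. The step between *gatd3alb.1* and *gatd3alb.2*, which was at most 1.83 TPM, marks the end of the run. The run was chosen after these values were seen and its gene order comes from another build than the one the reads were mapped to.

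**Figure D2:**
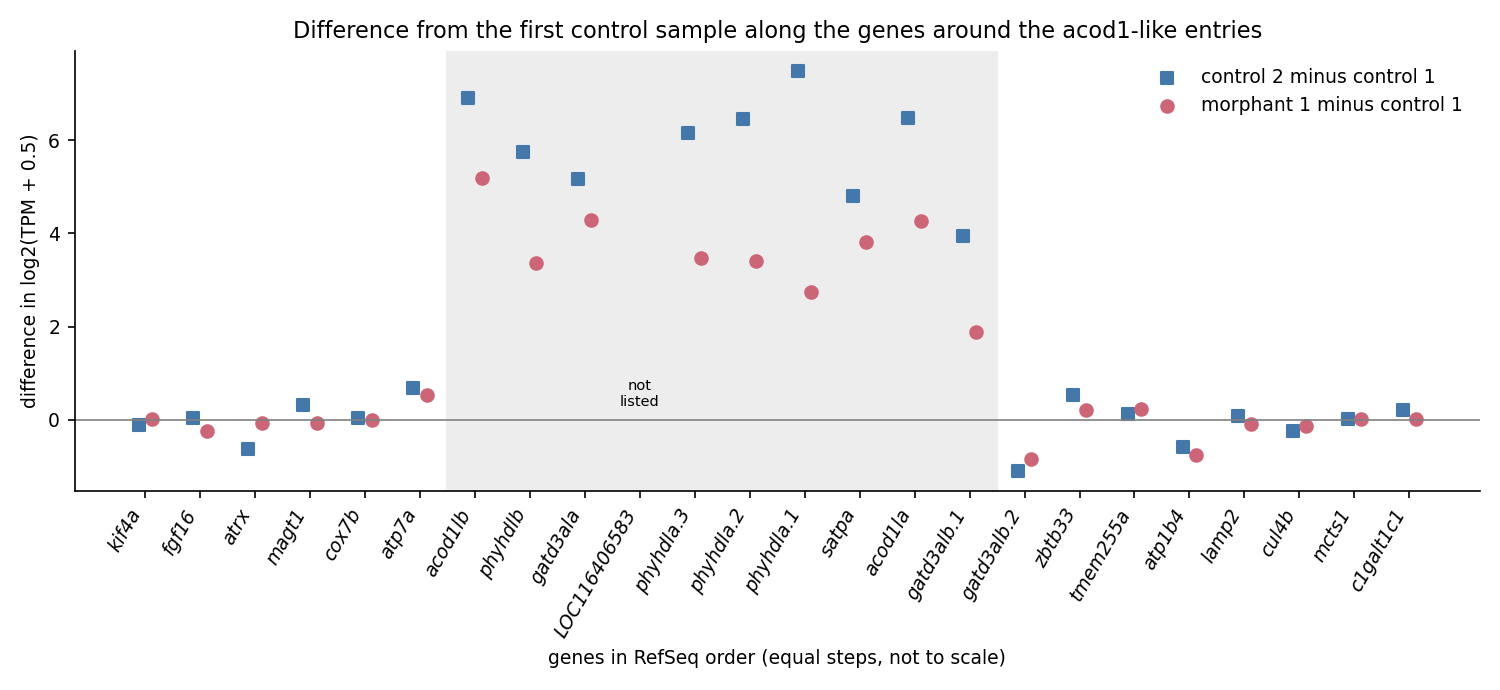
Difference from control 1 in log2(TPM + 0.5) (vertical axis) of control 2 (squares) and morphant 1 (circles) for genes in RefSeq order, in equal steps and not to scale, with the run from *acod1lb* to *gatd3alb.1* shaded. Inside the run control 2 lies 3.95 to 7.49 and morphant 1 lies 1.88 to 5.18 above control 1, and outside it control 2 lies between −1.10 and 0.68.

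By the rule of likeness among genes with a symbol, the 8 nearest to *acod1* were *irg1* (r = 0.997), *gatd3a-like* (0.991), *ubfd1* (0.970), *dennd2c* (0.964), *atp13a-like* (0.955), *kctd5* (0.939), *ptgs2* (0.936) and *tmem69* (0.933). Only *irg1* and *gatd3a-like* moved on a like scale, with log2 ranges of 6.90 and 5.43. The other 6 had ranges of 0.28 to 0.93. *ptgs2*, which encodes the inducible prostaglandin synthase COX-2, was 9.22, 16.3 and 15.7 TPM in controls and 13.8, 18.0 and 17.7 TPM in morphants.

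The interferon regulatory factors among the members were scarce at this stage. *irf3*, which acts downstream of nucleic acid sensors in mammals, was 0.0115, 0.0211 and 0.0259 TPM in controls and 0.0162, 0.0428 and 0 TPM in morphants. *irf8*, a regulator of macrophage differentiation, was 0.190, 0.126 and 0.253 TPM in controls and 0.153, 0.135 and 0.120 TPM in morphants. At these levels the groups overlapped and neither gene was tested.

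*irf1*, an inducible activator of interferon target genes, was the member IRF that passed the filter. Its level was 2.68, 5.98 and 5.95 TPM in controls and 3.21, 4.05 and 5.14 TPM in morphants. The groups overlapped, and set 1 was lowest in both. The morphant minus control log2 differences were 0.22, −0.51 and −0.19, with a fitted log2 fold change of −0.16 (SE 0.15, limma adjusted p = 0.505). Between replicate sets *irf1* differed with an adjusted p of 0.0349 (limma F test in the fit across all genes), where 41.8% of all genes tested passed. That p was above the threshold without set 1 (0.447) or set 3 (0.0849), with no filter on low TPM (0.0816), with median scaling (0.0529) or quantile normalization (0.0569), and with no mean-variance trend (0.0526).

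In the wider IRF family 12 of 13 names had a row and 8 were tested, of which 0 rose and 0 fell. Across all genes tested, 2.62% were called higher and 5.87% were called lower in morphants at an adjusted p of at most 0.05. The median log2 fold change of the 8 was −0.12, beside −0.07 for all genes. The most abundant included *irf2bp2*, a partner of *irf2*, and *irf2* itself. *irf2bp2* was 38.7, 45.2 and 65.0 TPM in controls and 36.3, 34.3 and 48.1 TPM in morphants, lower in each set but short of the threshold (log2 fold change −0.31, SE 0.086, limma adjusted p = 0.0762).

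*nfkbia*, the gene for IκBα and itself a target of NF-κB, varied least of the 5 members tested. It was 70.7, 62.5 and 50.8 TPM in controls and 70.2, 67.2 and 53.6 TPM in morphants. Both groups ran from set 1, the highest, to set 3, the lowest, and the siblings nearly coincided. The group means were 61.3 ± 10.0 and 63.7 ± 8.84 TPM (SD, n = 3), and the log2 fold change was 0.057 (SE 0.059, limma adjusted p = 0.533). The sets differed with an adjusted p of 0.0153 by the limma F test, and with 0.296 when set 3 was left out.

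*nfkb1*, which encodes p105, the precursor of the NF-κB subunit p50, was 0.513, 0.620 and 0.806 TPM in controls and 0.475, 0.398 and 0.559 TPM in morphants. Each morphant was below its sibling control, but the groups overlapped and the gene was below the filter, so it was not tested. At these levels *nfkb1* lay well under *rela*, the gene for the p65 subunit, which was 23.1, 29.0 and 35.4 TPM in controls and 21.6, 23.3 and 26.7 TPM in morphants (limma adjusted p = 0.0871). *rela* was named after its values were seen.

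Of 36 names in the NF-κB pathway list, 32 had a row and 27 were tested. Among the 27, 1 rose and 0 fell, where 2.62% of all genes tested were called higher and 5.87% lower. The median log2 fold change was −0.09, beside −0.07 for all genes. *traf1*, an adaptor of TNF receptors and a target of NF-κB, was the gene that rose. It was 9.33, 6.95 and 3.03 TPM in controls and 13.2, 13.7 and 7.99 TPM in morphants, higher in 3 of 3 sets although the groups overlapped (log2 fold change 0.89, SE 0.15, limma adjusted p = 0.0339, and 0.621 without the replicate block). The most abundant members besides *nfkbia* were the kinase gene *map3k7* (TAK1), with a log2 fold change of −0.09 (limma adjusted p = 0.400), and the ubiquitin ligase gene *birc2*, with −0.22 (limma adjusted p = 0.0730).

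*socs3*, the feedback inhibitor of JAK signalling, was the member that passed the threshold between control and morphant. Its level was 8.37, 16.3 and 17.4 TPM in controls and 6.18, 8.77 and 12.6 TPM in morphants. Every morphant was below its sibling control, by 0.41, 0.86 and 0.45 on the log2 scale in sets 1, 2 and 3, while the groups overlapped because both were lowest in set 1. The morphant mean, 9.18 ± 3.23 TPM, was 65.5% of the control mean, 14.0 ± 4.91 TPM (SD, n = 3). The fitted log2 fold change was −0.57 (SE 0.11, limma adjusted p = 0.0407). Among the 3 members given a test, *irf1*, *socs3* and *nfkbia*, 1 was thus called lower and 0 higher, against 5.87% and 2.62% of all genes tested.

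The call on *socs3* depended on the fit. The adjusted p was 0.710 without the replicate block and 0.0939 to 0.113 without set 3 or set 2, and it was also above the threshold with no filter on low TPM (0.0970), median scaling (0.0638), quantile normalization (0.0689) and no mean-variance trend (0.0616). Between sets, *socs3* differed with an adjusted p of 0.00951 (limma F test), and with 0.130 when set 1 was left out. All 3 members given a test passed that F test in the fit with all samples, where the share over all genes was 41.8%, and each lost it when at least 1 of the sets was left out.

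The symbol *stat3* is split into *stat3.1* and *stat3.2* in the table, which the exact symbol does not take in. They were looked up after the exact symbol was missing. *stat3.1* was 0.647, 0.841 and 0.716 TPM in controls and 0.358, 0.531 and 0.809 TPM in morphants. *stat3.2* was 0.319, 0.700 and 0.585 TPM in controls and 0.129, 0.561 and 0.477 TPM in morphants. Both stayed under 1 TPM in every sample and neither was tested. Closely related copies such as these may share reads.

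In the JAK-STAT pathway list, which holds *socs3*, 35 of 39 names had a row and 23 were tested. Of these 3 fell and 0 rose, where 5.87% of all genes tested were called lower and 2.62% higher. The median log2 fold change was −0.10, beside −0.07 for all genes. The kinase gene *jak1* was 5.40, 5.30 and 5.57 TPM in controls and 3.36, 3.61 and 3.28 TPM in morphants, with no overlap between the groups and almost no spread within them (log2 fold change −0.60, SE 0.098, limma adjusted p = 0.0318, and 0.354 without the replicate block). *il10rb*, a receptor subunit for interleukin-10, was 1.43, 1.02 and 0.574 TPM in controls and 0.679, 0.295 and 0.187 TPM in morphants. It fell in 3 of 3 sets with overlapping groups (log2 fold change −0.76, SE 0.17, limma adjusted p = 0.0484, and 0.595 without the replicate block). *il10rb* passed the filter only through the controls, with a mean of 1.01 TPM against 0.387 TPM in morphants. The filter thus favoured a fall of this gene, and neither its call nor its place among the 3 that fell is independent of that. Its log2 fold change was −1.24 with a pseudocount of 0.1 and −0.53 with 1, and the adjusted p was then 0.0501 and 0.0513 (limma). The abundant *pias4*, *ptpn2* and *socs7*, all known as inhibitors of this route, had log2 fold changes of −0.10, 0.09 and 0.37 with limma adjusted p of 0.285, 0.402 and 0.189.

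Receptors and sensors that would feed these factors were mostly below the filter. In the pattern recognition list, 29 of 42 names had a row, 9 were tested and 20 were below the filter. None of the 9 was called in either direction, where 2.62% of all genes tested were called higher and 5.87% lower. Their median log2 fold change was −0.14, beside −0.07 for all genes. *myd88*, the adaptor of Toll-like receptors, was 9.67, 23.4 and 13.8 TPM in controls and 9.33, 18.6 and 11.3 TPM in morphants. Both groups were highest in set 2, the F test between sets gave an adjusted p of 0.00469 (limma), and the log2 fold change between groups was −0.22 (limma adjusted p = 0.142). *pycard*, the inflammasome adaptor, was 28.3, 30.2 and 28.6 TPM in controls and 26.3, 25.5 and 26.9 TPM in morphants (limma adjusted p = 0.201).

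Among interferon-stimulated genes, 21 of 33 names had a row, 10 were tested, 2 rose and 0 fell. Over all genes tested, 2.62% were called higher and 5.87% lower. The median log2 fold change of the 10 was 0.045, beside −0.07 for all genes. *b2m*, the light chain of MHC class I, was 2.42, 1.65 and 3.50 TPM in controls and 4.46, 3.32 and 7.09 TPM in morphants, higher in 3 of 3 sets with overlapping groups (log2 fold change 0.84, SE 0.10, limma adjusted p = 0.0211, and 0.567 without the replicate block). *ifi35* was 1.57, 1.96 and 2.25 TPM in controls and 2.32, 3.74 and 4.03 TPM in morphants, with no overlap (log2 fold change 0.65, SE 0.12, limma adjusted p = 0.0395, and 0.525 without the replicate block). The more abundant *ifitm1*, *adar* and *ifit5* had limma adjusted p of 0.809, 0.639 and 0.0787.

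Inflammatory effectors gave 24 tested genes of 38 with a row, from 45 names. Of the 24, 2 fell and 0 rose, where 5.87% of all genes tested were called lower and 2.62% higher. *hmox1*, which breaks down heme, was 3.89, 3.70 and 3.86 TPM in controls and 2.67, 2.25 and 2.46 TPM in morphants (log2 fold change −0.55, SE 0.11, limma adjusted p = 0.0402, and 0.437 without the replicate block). The groups of *hmox1* did not overlap, and its limma adjusted p was 0.0593 to 0.132 with any 1 set left out. *c3*, the central complement component and the most abundant gene of the list, was 324, 639 and 437 TPM in controls and 326, 568 and 442 TPM in morphants. It was highest in set 2 of both groups, with an adjusted p of 0.00394 between sets (limma F test) and a log2 fold change between groups of −0.05 (limma adjusted p = 0.629).

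The enzymes around itaconate and citrate all passed the filter, with 30 of 30 names tested. Of the 30, 2 fell and 0 rose, where 5.87% of all genes tested were called lower and 2.62% higher. The 30 include *irg1*, which is described above without a test and is not among the genes that fell. *acly*, which splits citrate in the cytosol, was 62.5, 47.1 and 50.4 TPM in controls and 45.9, 40.8 and 35.0 TPM in morphants, with no overlap (log2 fold change −0.39, SE 0.080, limma adjusted p = 0.0440, and 0.585 without the replicate block). With any 1 set left out the adjusted p of *acly* was 0.0714 to 0.133 (limma). *suclg2*, a subunit of succinyl-CoA ligase, was 19.2, 21.8 and 36.6 TPM in controls and 15.2, 16.9 and 22.1 TPM in morphants, lower in 3 of 3 sets with overlapping groups (log2 fold change −0.46, SE 0.097, limma adjusted p = 0.0456, and 0.693 without the replicate block). *idh2*, the mitochondrial isocitrate dehydrogenase, was 633, 694 and 832 TPM in controls and 556, 655 and 784 TPM in morphants. Neither *idh2* nor *cs*, the citrate synthase gene, fell in control 1 on the scale of *acod1*, and *cs* was 173 TPM against 149 and 212 TPM in controls 2 and 3.

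Markers of primitive myeloid cells were present, and their summed level did not keep the sample order of *acod1* in either group. Of 16 defining markers, 15 had a row, 0 were at 0 in all samples and 6 reached a mean of 1 TPM in a group. Their summed level was 92.2, 70.9 and 195 TPM in controls and 102, 56.6 and 131 TPM in morphants, so the range was 70.9 to 195 TPM against 56.6 to 131 TPM. *mpo*, the myeloperoxidase gene, was 49.2, 35.5 and 104 TPM in controls and 53.9, 26.4 and 63.1 TPM in morphants, and *spib*, a transcription factor of these cells, was 22.6, 18.0 and 46.7 TPM and 28.0, 15.2 and 37.4 TPM. Among controls *acod1* was highest in sample 2, but among morphants it was highest in sample 3 (84.4 TPM), where the summed markers also peaked. Both *mpo* and *spib* were lowest in set 2 and highest in set 3 of either group. Not every marker had that order. *cebpa* was 10.6, 10.9 and 31.9 TPM in controls and 13.8, 9.03 and 23.8 TPM in morphants, and *coro1a* was highest in morphant 2 at 2.41 TPM. *mpo*, *spib* and *cebpa* made up most of the sum. The defining markers *spi1*, *lyz*, *csf1r* and *tyrobp* stayed under 1 TPM in every sample. Whether the number of these cells takes part in the differences above was not tested.

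From the wider myeloid list of 34 names, 27 had a row and 13 were tested. Of the 13, 1 rose and 1 fell, where 2.62% of all genes tested were called higher and 5.87% lower. *cybb*, a subunit of the phagocyte NADPH oxidase, was 3.95, 2.01 and 4.89 TPM in controls and 1.83, 1.21 and 1.92 TPM in morphants, with no overlap (log2 fold change −0.88, SE 0.15, limma adjusted p = 0.0328, and 0.523 without the replicate block). *gata2*, a transcription factor of blood progenitors and also of ventral ectoderm, was 305, 314 and 249 TPM in controls and 373, 388 and 332 TPM in morphants, with no overlap (log2 fold change 0.34, SE 0.057, limma adjusted p = 0.0328, and 0.556 without the replicate block). The most abundant markers of the neurula itself included *sox3* of the neural plate at 232 to 390 TPM and *myod1* of the somites at 325 to 423 TPM. *tbxt* of the midline was lower, at 10.1 to 47.1 TPM, and lowest in set 1 of both groups. In that list of 24 names, 22 were tested and 1 fell, the troponin gene *tnnc1*. Between sets, 17 of the 22 passed the limma F test, where 41.8% of all genes tested passed.

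**Figure D3:**
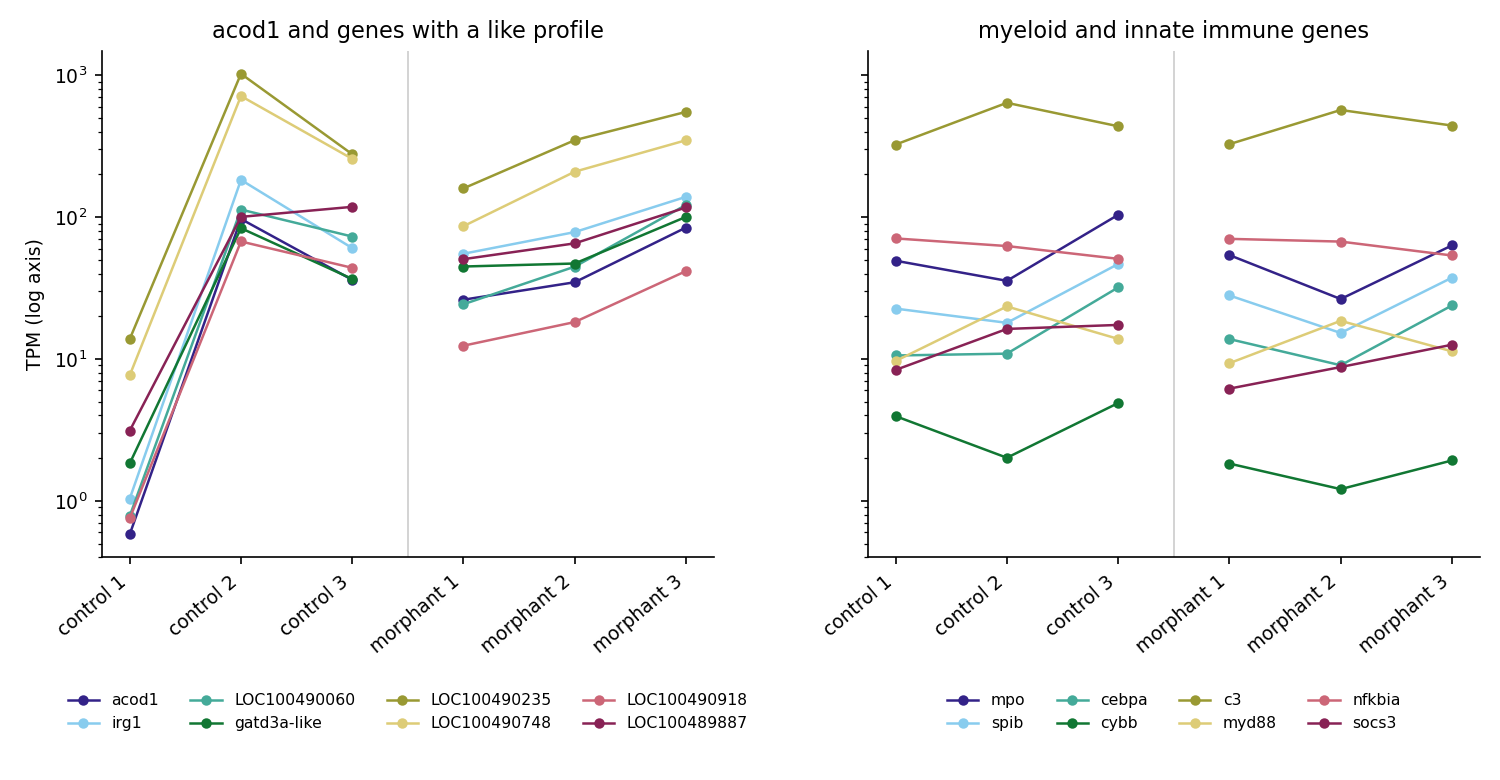
TPM on a log axis (vertical) in the 6 samples (horizontal), with lines joining the values of a gene within a group, for *acod1* and genes of like profile (left) and for myeloid and innate immune genes (right). On the left every gene is lowest in control 1, and on the right the sets keep nearly the same order in both groups, with *mpo* and *spib* lowest and *c3* and *myd88* highest in set 2.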

How the data were processed

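Expression was read per gene from RNA-seq of Stage 16 *Xenopus tropicalis* embryos, in 3 control and 3 morphant samples. The deposited values are TPM, which the authors made by trimming reads with cutadapt, running Salmon on version 9.1 of the species' transcriptome and aggregating transcripts to genes. The tools come from the submitters' processing notes and the paper, and Sleuth, which the authors used for their tests, was left aside. Each column's name gave its sample.

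A gene was tested if the mean of the controls or of the morphants was 1 TPM or more, which kept 13382 of 23634. On the log2(TPM + 0.5) values, limma 3.58.1 (R 4.3.3) was run with eBayes, a mean-variance trend and Benjamini-Hochberg adjustment over all genes tested, at an adjusted p of at most 0.05. Fold changes are on that scale, which understates the change of low genes. The replicate number was a block, since the study describes sets of sibling embryos, and the fit left 2 residual degrees of freedom. Deviations from the group means of same-numbered samples correlated with r of 0.721, 0.615 and 0.731, and those of differently numbered samples with −0.566 to −0.174. Deviations cancel within each group, so negative values between differently numbered samples follow from positive ones between same-numbered samples and add no separate evidence of pairing. An F test on the set coefficients of the same fit compared the sets. The fit was tested on simulated data.

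The members and gene lists were chosen with earlier results of these data known, so the counts of a list are no independent evidence. Named genes are the members, up to 4 called genes and the 3 most abundant of each list, the 8 genes with a symbol and at least 5 TPM nearest to *acod1*, *src*, LOC108645507 and LOC100335111. Other genes were named after their values were seen, and some genes that the rule selects are not reported here. Names and gene order come from the RefSeq table of UCB_Xtro_10.0. Its coordinates are not printed, since the build differs. Alternatives were pseudocounts of 0.1 and 1, no filter, a filter at 5 TPM, no block, omission of each set, scaling by the median or by quantiles, no trend, and, added after seeing the data, a table without LOC108645507 and LOC100335111.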

Additional observations from a re-analysis of the deposited data

How the results depend on the processing

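Counts of calls moved with the setting. Against 350 genes higher and 786 lower, no filter on low TPM gave 0 and 0 (4975 genes at an unadjusted p under 0.05 by limma) and no replicate block gave 0 and 1 (1124 genes). Without the replicate block 0 of the 13 named calls were kept, with limma adjusted p of 0.354 to 0.822. Leaving out 1 set, which leaves 1 residual degree of freedom, gave 44 to 472 higher, 63 to 714 lower and 2073 to 4292 genes different between sets. Median scaling gave 560 higher and 410 lower, quantile normalization 402 lower, and no mean-variance trend 126 higher and 368 lower. Without LOC108645507 and LOC100335111, added after seeing the data, 420 were higher and 634 lower.

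Of the 13 named calls, 11 were kept with either pseudocount, 7 of the 7 tested at 5 TPM, 9 of 12 tested without set 1, 1 of 11 without set 2 (*cybb*), 0 of 12 without set 3, 6 of 11 with median scaling, 6 of 13 with quantile normalization, 7 of 13 without the trend and 9 of 13 without the pair of LOC genes. No named call changed sign in these fits. The calls on *acly* and *hmox1* were lost whichever set was left out, and with median scaling or quantile normalization. Those on *socs3*, *suclg2* and *src* were kept without set 1. They were lost without set 2, without set 3, and with median scaling or quantile normalization. With 1 set left out the log2 fold change of *irf1* ranged from −0.35 to 0.015, and it reversed without set 2 (limma adjusted p = 0.966). The causes were not tested. TPM carries no depth, so what counting error limits is unknown.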

Other observations

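Beyond the run beginning with *acod1lb*, 6 genes with an r of at least 0.95 with *acod1* and a log2 range of at least 3 were found, and 3 of them are neighbours in the RefSeq order. LOC108648340 was 2.45, 85.5 and 39.4 TPM in controls and 17.9, 30.5 and 44.1 TPM in morphants. LOC100497952 was 2.43, 135 and 38.8 TPM in controls and 44.7, 65.0 and 103 TPM in morphants, and LOC100498107 was 6.19, 160 and 66.7 TPM in controls and 64.4, 85.3 and 137 TPM in morphants. Each was lowest in control 1 and highest in control 2, and r with *acod1* was 0.976, 0.991 and 0.997 over the 6 samples. The 3 others were LOC108648341, LOC105948134 and LOC101734069. LOC101734069, the most abundant of them, was 55.0, 2320 and 380 TPM in controls and 395, 868 and 1066 TPM in morphants. These genes were chosen after their values were seen and were given no test, and the files do not say what they encode.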
